A study of Malus hupehensis with 3 samples.

Results

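mdm-miR160 and mdm-miR167 are the miRNA families that act on transcripts of auxin response factors (ARFs), and they were described here together with the gene models at which their cleavage sites were listed. The members were every miRNA name beginning with mdm-miR160 or mdm-miR167 in the list of known apple miRNAs, 15 of 207 names, and every gene model paired with them in the degradome, 12 of the 129 gene models paired with a known miRNA. The 15 names stood for 4 of the 85 distinct known sequences. The leaves came from Malus hupehensis, an apple species, with 1 small RNA library of adult phase leaves (A) from the tops of 18 trees aged 6 years and 1 small RNA library of juvenile phase leaves (J) from the base of trees of the same number and age. A degradome library, which captures the 5′ ends left by RNA cleavage, was made from J leaves only. No mutant, transgene or treatment was named for either phase, and the leaves of each phase were pooled, so that tree-to-tree spread was not measured and no test between A and J was possible. Position in the crown and phase cannot be told apart in this design.

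ARFs bind auxin response elements in promoters and switch auxin-responsive genes on or off. In Arabidopsis, miR160 directs cleavage of the transcripts of the repressing ARF16 and ARF17, and miR167 directs cleavage of those of the activating ARF6 and ARF8, which act in flower maturation and adventitious rooting. Plant miRNAs pair with their targets along almost the whole of their length, and the cut falls opposite bases 10 and 11 of the miRNA.

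The mature sequences are shown first because counts are given below for the 4 sequences and not for the 15 names. In each, capitals mark the seed, bases 2 to 8 from the 5′ end, and letters are RNA:
mdm-miR160a to e (21 nt): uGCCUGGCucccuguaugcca
mdm-miR167b to g (21 nt): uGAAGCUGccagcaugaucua
mdm-miR167h to j (22 nt): uGAAGCUGccagcaugaucuua
mdm-miR167a (21 nt): aGAUCAUCuggcaguuucacc
The 21-nt and 22-nt miR167 sequences shared their first 20 bases and therefore their seed, and differed only at the 3′ end. The entry named mdm-miR167a had another seed. mdm-miR167a was laid against mdm-miR167h with 2 bases at the 3′ end of mdm-miR167a set to hang over. Base 13 of mdm-miR167h was left bulged, as the choice that gave the most pairs. The strands then faced each other at 19 positions, of which 18 were Watson-Crick pairs and 1 was a G:U pair. At the 3′ end of mdm-miR167h 2 bases were left over. The 21-nt mdm-miR167b gave the same numbers of pairs with 1 base left over. An overhang of 2 bases at each 3′ end is the geometry of a miRNA and its passenger strand. As 1 overhang was set beforehand, the layout is given as a description of the letters only.

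The target sites are shown next because their letters set the pairing described further on. They were read 5′ to 3′ from the degradome records as DNA letters, from the base opposite base 21 of the miRNA to the base opposite base 1, and capitals mark bases in a mismatch or a G:U pair with the 21-nt miRNA:
miR160 site in MDP0000131481 and MDP0000221322 (ARF16): Aggcatacagggagccaggca
miR160 site in MDP0000750392 (ARF16): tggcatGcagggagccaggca
miR160 site in MDP0000232116 and MDP0000256621 (ARF17) and MDP0000273491 (GrpE): GggcatGcagggagccaggca
miR167 site in MDP0000137461 (ARF8) and MDP0000550049 (ARF6): tagatcaGgctggcagcttGT
miR167 site in MDP0000153538 and MDP0000319957 (ARF6), and in MDP0000232417 (ARF8) and MDP0000268306 (ARF19): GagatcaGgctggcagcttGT
By the annotation of the apple gene models used in the study, 11 of the 12 gene models were ARFs and 1, MDP0000273491, was a co-chaperone GrpE family protein, a class that assists the Hsp70 chaperone.

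The first question was how far the families differed between the phases. miR160 was far lower in A leaves, whereas miR167 was among the most abundant known families in both. mdm-miR160 was sequenced 27 times in A and 223 times in J. In reads per 1000000 clean reads (RPM), clean reads being the quality-filtered reads of a library, its level was 1.67 RPM (95% exact interval 1.10 to 2.42) in A and 16.5 RPM (14.4 to 18.8) in J. The A over J ratio was 0.101 (0.0652 to 0.151), a log2 difference of -3.31. These intervals, here and below, were Clopper-Pearson intervals and covered counting error only, since each phase had 1 library. They took each read as independent. PCR copies were not marked, so the intervals may be too narrow even for counting error.

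The 21-nt sequence of mdm-miR167b to g had 105776 reads in A and 166874 in J, which was 6521 RPM in A and 12318 RPM in J. Its A over J ratio was 0.529 (0.525 to 0.534), a log2 difference of -0.92. The 22-nt sequence of mdm-miR167h to j had 13048 reads in A and 13912 in J, which was 804 RPM in A and 1027 RPM in J, with a ratio of 0.783 (0.765 to 0.802). mdm-miR167a was read 8 times in A and 7 times in J, and its ratio of 0.955 (0.302 to 3.09) left both a lower and a higher level in A within its interval. As a family, miR167 stood at 7326 RPM in A and 13345 RPM in J, with a ratio of 0.549 (0.545 to 0.553). By reads it ranked 3 of 42 known families in A and 4 in J, and miR160 ranked 33 in A and 23 in J.

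A call needed 10 or more reads in a library, a difference of at least 2-fold (a ratio of 2 and over, or of 0.5 and under) and an interval free of 1. Of the 59 sequences of known miRNAs that reached this minimum, 22 were called lower in A, which was 37.3%. Of the 3 member sequences with 10 or more reads, 1, that of miR160, was called. Among 38 families the same rule called 15 lower in A, which was 39.5%, and 1 of the 2 member families was among them. A call of lower in A was thus common over all known miRNAs, and neither share set the members apart. Only 5 sequences were called higher in A, but this split turned with the scale, to 10 lower and 22 higher where the sum of known miRNA reads replaced the clean reads.

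**Figure D1:**
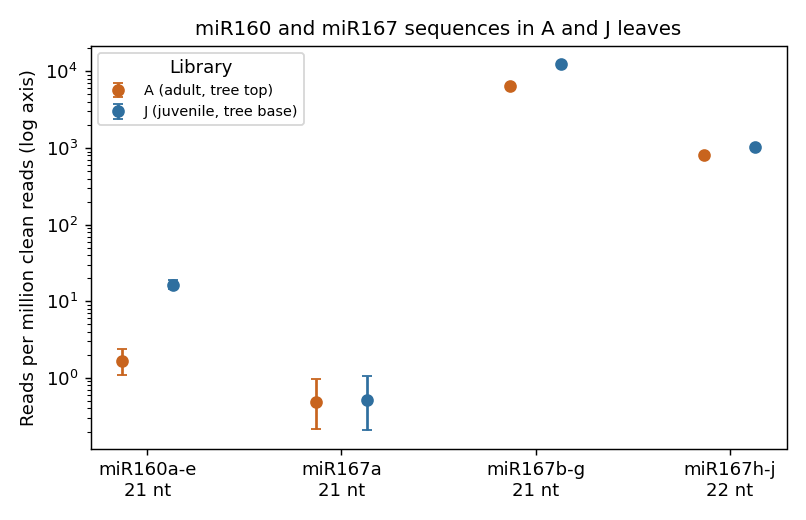
RPM (log axis) of the 4 member sequences in A and J leaves, 1 library each; bars are exact 95% intervals for counting error and are smaller than the points for the abundant sequences. miR160 stands at 1.67 in A and 16.5 in J, the main miR167 sequence at 6521 in A and 12318 in J, and the intervals of miR167a overlap.

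The ratios depended on how the libraries were scaled. Known miRNAs made up 4.83% of the clean reads in A and 11.4% in J. Over the 56 sequences of known miRNAs that A and J each held at 10 reads or above, the median log2 A over J difference was -0.69, which is a ratio of 0.620. Set against that median, miR160 had a ratio of 0.163 (0.105 to 0.244) and the miR167 family one of 0.885 (0.879 to 0.892). miR160 was called lower in A under the clean reads and all 5 other scalings, with ratios of 0.101 to 0.238. The 21-nt miR167 sequence was lower in A under all of them but the sum of known miRNA reads, where its ratio was 1.24. The 22-nt sequence was lower in A under the clean reads, with no scaling and under the known total without mdm-miR156 and mdm-miR535, and was higher in A under the other 3, with ratios up to 1.84. The 21-nt and 22-nt sequences were within 2-fold under all of these scalings, and their direction between the phases was not settled by these libraries. mdm-miR167a reached 2.24 (0.711 to 7.27) under the sum of known miRNA reads, with too few reads for a call.

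**Figure D2:**
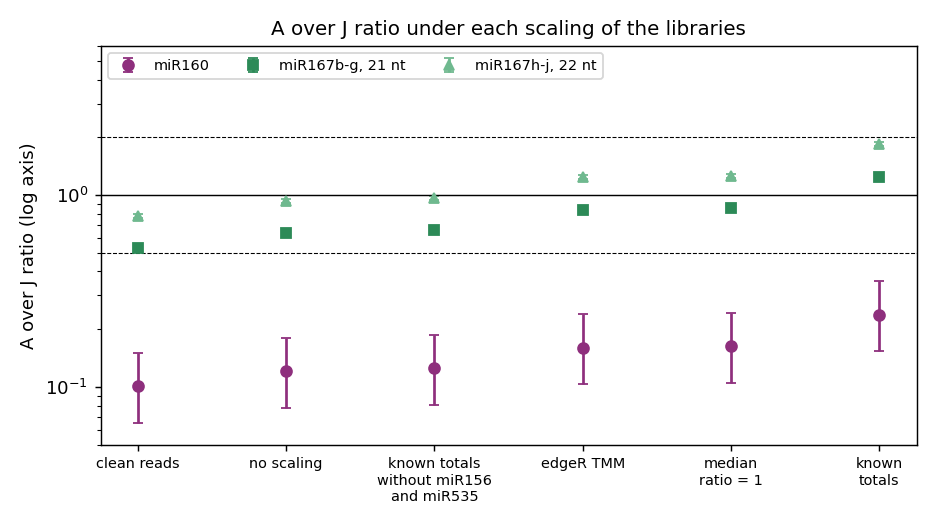
A over J ratio (log axis) of miR160 and of the 21-nt and 22-nt miR167 sequences under the clean reads and 5 other scalings; bars are exact 95% intervals, the solid line is a ratio of 1 and the dashed lines mark 0.5 and 2. miR160 runs between 0.101 and 0.238 and keeps below 0.5, while both miR167 sequences cross 1.

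Comparisons within a library do not depend on its scale. The 22-nt form made up 10.98% (10.80 to 11.16) of the miR167 reads in A and 7.70% (7.57 to 7.82) in J. Between the families, 4401 miR167 reads were sequenced for each miR160 read in A, and 811 in J. miR160 thus held 0.0227% (0.0150 to 0.0331) of the reads of both families in A and 0.123% (0.108 to 0.141) in J. Both pairs of intervals were separate. With 1 library per phase, this says only that the libraries differed beyond the counting error of reads taken as independent. Of all known miRNA reads, miR167 held 15.2% (15.1 to 15.2) in A and 11.8% (11.7 to 11.8) in J, and miR160 held 0.00344% (0.00227 to 0.00501) in A and 0.0145% (0.0127 to 0.0165) in J.

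Names that share a sequence did not all carry the same count. The 5 entries of the miR160 sequence held 26 to 27 reads in A and 221 to 223 in J. The 3 entries of the 22-nt miR167 sequence were equal in each library. The 6 entries of the 21-nt miR167 sequence fell apart, from 80031 to 105776 reads in A and from 129341 to 166874 in J, a spread of 1.32 and 1.29 times. A spread over 1.2 times was found in 3 of the 41 known sequences that had 2 or more names and enough reads, and this was one of them. The highest entry was used throughout. With the lowest, the ratio of the 21-nt sequence was 0.517 (0.512 to 0.521), and the 22-nt share was 14.0% (13.8 to 14.2) in A and 9.71% (9.56 to 9.87) in J. Unlike sequences could also carry equal counts. The sequences of mdm-miR156aa (20 nt) and mdm-miR156p (21 nt) both had 158 reads in A and 7244 in J. Whether a read could be counted for several sequences was not given. The 22-nt share and the family totals of miR167 would change if the 21-nt and 22-nt counts held the same reads.

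Ordered by A over J ratio, miR160 had the 5th lowest value of 38 families and miR167 the 18th. The families nearest to miR160 were mdm-miR535 at 0.0836 (0.0825 to 0.0847), mdm-miR156 at 0.0497 (0.0492 to 0.0503) and mdm-miR5225 at 0.211 (0.186 to 0.240). miR156, which acts on SPL transcripts and keeps plants juvenile, and miR5225 lay outside the interval of miR160, and miR535 lay inside it. The families nearest to miR167 were mdm-miR403 at 0.533 (0.435 to 0.651), mdm-miR159 at 0.525 (0.352 to 0.776) and mdm-miR7121 at 0.574 (0.556 to 0.592). The intervals of miR403 and miR159 held the miR167 value, and that of miR7121 did not. Likeness was measured as the distance between log2 ratios over 2 libraries, among families with 50 or more reads in both together.

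**Figure D3:**
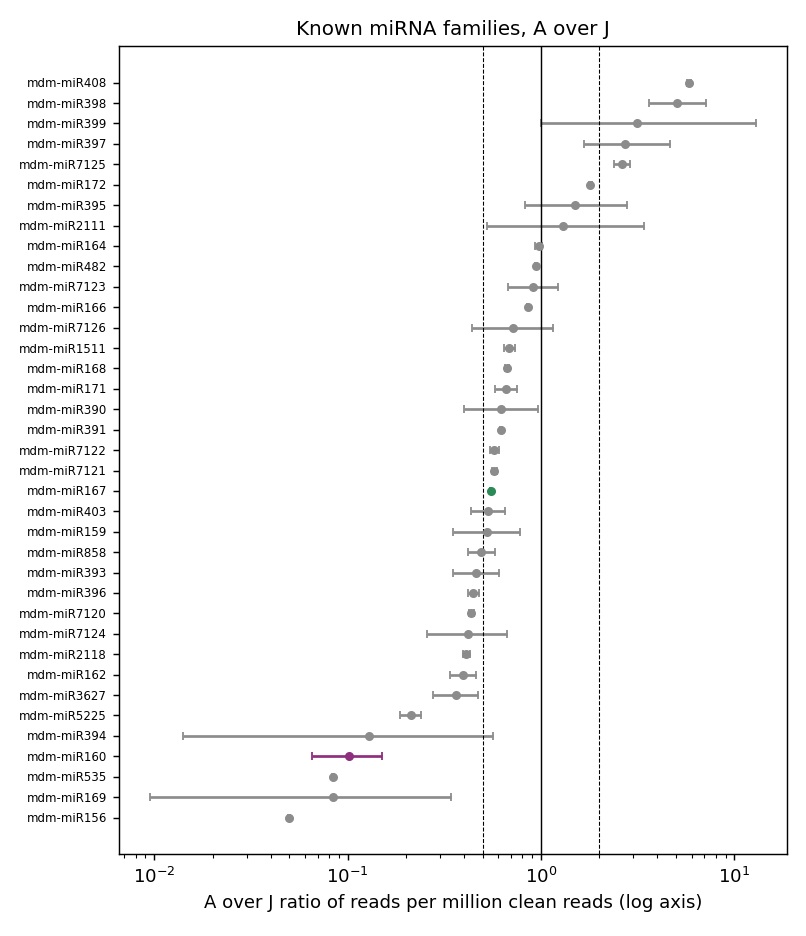
A over J ratio in RPM (log axis) for the 37 known families with 10 or more reads in a library and reads in both; bars are exact 95% intervals for counting error, the solid line is 1 and the dashed lines are 0.5 and 2. miR160 (purple) stands near the low end at 0.101, beside miR535 at 0.0836, and miR167 (green) in the middle at 0.549; the family with 0 reads in a library cannot be drawn.

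Other known families tied to auxin were set beside them. The miR393 family, which acts on the TIR1/AFB auxin receptors, was at 0.462 (0.349 to 0.606), with 84 reads in A against 152 in J, and was called lower in A with clean reads but under none of the 5 other scalings, where its ratio ran up to 1.08. Its reads were summed over a 22-nt sequence (42 in A, 77 in J) and a 21-nt sequence (42 in A, 75 in J). These nearly equal counts may hold the same reads, which would make the family interval too narrow. The 22-nt sequence alone was at 0.456 (0.305 to 0.672). The miR390 family, which starts the small RNAs that act on other ARFs, was at 0.622 (0.398 to 0.966), with 38 reads in A against 51 in J, and was not called under any scaling. The miR164 family, which acts on NAC transcription factors, counted 4069 reads in A and 3501 in J, with an interval of 0.928 to 1.02, and was called only under the sum of known miRNA reads, as higher in A at 2.28. The call of miR160 did not depend on the scaling, unlike that of miR393.

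The second question was which transcripts carried cleavage sites of the families in J leaves. Each of the 12 gene models had 1 listed site, 6 for miR160 and 6 for miR167, and no other miRNA was listed at any of them. The site count, the number the degradome record gives for the site, is printed without a scale because its unit was not stated. Gene models shared sites, and those with the same 17 bases from the site to the end of the 31-base window and the same count were taken as 1 distinct site, which left 6. With the whole window required to be the same, 8 were left. The windows of the 2 ARF17 gene models and of the GrpE gene model all differed from each other at a base outside the paired stretch. For miR160, the 3 sites had counts of 1661, 105 and 43. The count of 1661 was listed at both ARF17 gene models and at the GrpE gene model, whose windows of 31 bases were identical at 30. It was the highest of the 79 distinct sites of known miRNAs, counted in the same way. The ARF16 sites had counts of 105 in MDP0000750392 and 43 in MDP0000131481 and MDP0000221322, ranks 29 and 62. A fragment that fits several gene models cannot be assigned to one of them, so it remained unknown whether the GrpE gene model was cut.

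For miR167, the counts were 1375 in MDP0000232417 (ARF8) and MDP0000268306 (ARF19), 1329 in MDP0000153538 and MDP0000319957 (both ARF6), and 624 in MDP0000137461 (ARF8) and MDP0000550049 (ARF6). These were ranks 3, 4 and 11 of the 79. The ARF names did not follow the sites, since ARF8 shared a window of 31 bases with ARF19 in one case and with ARF6 in another. The sites with 1375 and 1329 had the same 21 bases opposite the miRNA and differed at 2 of the 31 bases of the window. The site with 624 differed from either at 1 of the 21 bases.

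**Figure D4:**
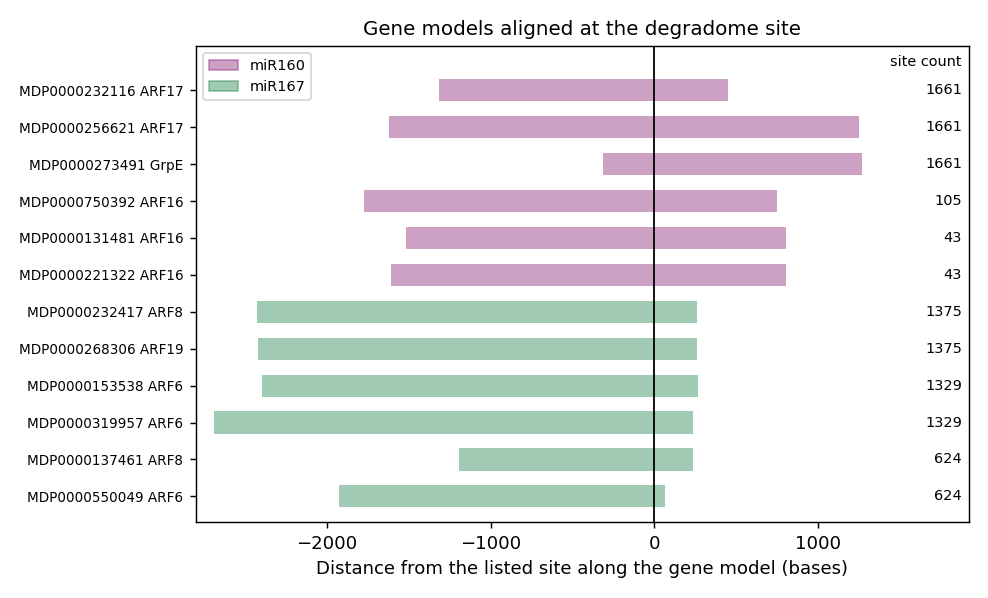
The 12 gene models drawn to scale and aligned at the listed site (vertical line), with the site count at the right; the x axis is the distance from the site in bases. The miR160 sites (purple) lie within the body of the gene models and the miR167 sites (green) lie 64 to 265 bases before the end.

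The site counts were set beside the miRNA levels of the same leaves. In J leaves, miR160 had 16.5 RPM and its 3 distinct sites summed to 1809, whereas miR167 had 13345 RPM and its 3 sites summed to 3328. Gene models were merged by the bases from the site on and the count, a rule chosen after seeing the data. With the whole window required to be the same, the count of 1661 would enter at each of 3 gene models. The miR160 sum would then be higher. The miR167 sites were 3 under either rule. The sums and the ranks below were not computed with whole windows. Among the 25 known families with listed sites, miR167 ranked 1st by summed site count and 4th by reads in J, and miR160 ranked 4th by summed site count and 14th by reads. For each 100 reads of the miRNA in J, the summed count was 811 for miR160 and 1.84 for miR167, within a range of 0.0765 to 41500 and a median of 137 over the 25 families. The value was below that of miR160 in 20 families and below that of miR167 in 5. Levels of the target transcripts were not measured here. No degradome library of A leaves was analysed here, so that nothing can be said of cleavage in A.

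All 12 sites lay opposite base 10 of the miRNA. Of the 147 combinations of gene model, site and family of the other known miRNAs, 117 did, which was 79.6%. None of the 12 gene models had a second listed site, while 19 of the other 117 gene models had several. With codons counted from base 1 of each gene model, all 12 sites were at the second position of a codon, against 33 of the 145 sites of the other known miRNAs, or 22.8%. The 12 are not independent, since gene models of one family share the site. All 12 gene model lengths were multiples of 3, as the lengths of coding sequences are, and lengths are called coding lengths below.

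Position along the gene model separated the families. The 6 miR167 sites lay at 83.4% to 96.8% of the length, with 64 to 265 bases of coding length after them. The 5 ARF sites of miR160 lay at 56.4% to 74.4%, with 451 to 1252 bases after them. The GrpE site lay at base 311 of 1581, or 19.7%. Among the ARF16 gene models, MDP0000131481 and MDP0000221322 both had 805 bases after the site and differed in length, 2322 and 2412 bases. The ARF17 gene models differed more, with the site at base 1313 of 1764 in MDP0000232116 and at base 1622 of 2874 in MDP0000256621. The ARF6 gene model MDP0000550049 was the shortest on the 3′ side, with the site at base 1928 of 1992.

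Pairing was close to complete for miR160 and looser for miR167. The score of a record equalled its number of mismatches plus 0.5 for each G:U pair in all 2204 records, and no record scored over 4. miR160 scored 0.5 at MDP0000750392, from a G:U pair at base 15. It scored 1 at the other ARF16 gene models, from a mismatch at base 21, and 1.5 at ARF17 and GrpE, which had both. Bases 1 to 14 were thus paired at every miR160 site. Within the family the site counts did not follow the score, as the highest count, 1661, stood at the highest score.

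The 21-nt miR167 sequence scored 3 at the site with the count of 624, with mismatches at bases 1, 2 and 14. It scored 4 at the other 2 sites, which had a further mismatch at base 21. Base 2 belongs to the seed, and bases 1 and 2 were mismatched together at all 6 miR167 gene models and in 0 of the 147 combinations of the other known miRNAs. Bases 3 to 13, which include those opposite the cut, were paired at every site.

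The 22-nt form, which differed from the 21-nt form only at the 3′ end, had other scores. It scored 4 against 3 for the 21-nt form at the site with 624, and 3.5 against 4 at the site with 1375. At the ARF6 site with 1329 it would score 4.5 by the same rule, above the highest score in the records, and no record named it there. The 2 ARF6 gene models with that site were therefore listed with the 6 names of the 21-nt form alone, and the other 4 with all 9. mdm-miR167a had no record, and laid on the miR167 sites in the same register it scored 15 to 16.

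**Figure D5:**
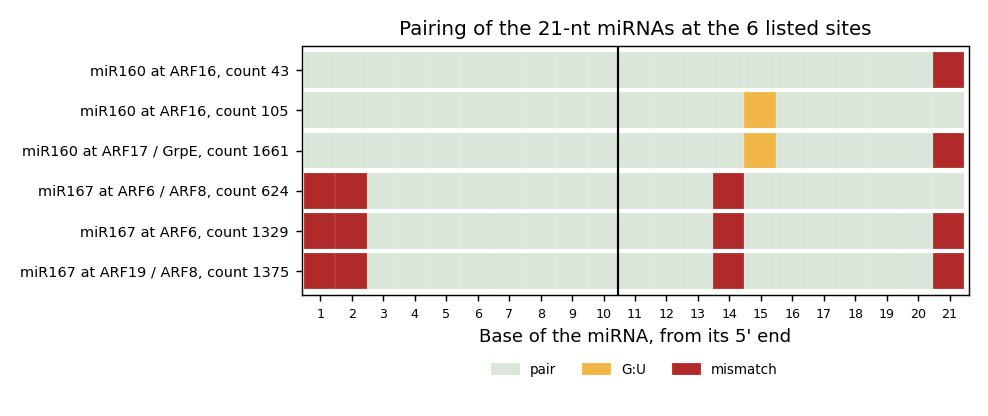
Pairing of the 21-nt miR160 and miR167 sequences at the 6 distinct sites, by base of the miRNA from its 5′ end (x axis); pale cells are Watson-Crick pairs, yellow cells G:U pairs and red cells mismatches, and the vertical line lies between bases 10 and 11. miR160 has no mismatch before base 21, and miR167 is mismatched at bases 1, 2 and 14 at each site.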

How the data were processed

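The deposited small RNA files give, per the file headers, raw read counts for 380 entries in each of the A and J libraries, 208 of known apple miRNAs and 172 predicted by the authors. Per the study's methods, adapters and low-quality reads had been removed and reads matched to miRBase; the counter was not given in the sources used here. Names were joined to counts by sequence, and each distinct sequence was counted once, at its highest entry. Reads were scaled to the clean-read totals stated by the study (A over J, 1.20), since the files hold only part of each library. The deposited degradome file lists records made by the authors with PairFinder, with site, site count and score; pairing was read from its alignments. No gene model was placed on a chromosome, because no apple genome was used here.

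Intervals were exact (Clopper-Pearson, SciPy 1.17.1). edgeR 4.0.16 gave TMM scaling only. The interval and the call were tested on simulated data, drawn as independent counts with the scaling known. The simulation held no library-to-library spread, PCR copies or reads shared between sequences, so it could not test for these. Other scalings, read minimums, folds and name rules were tried, as were stricter site rules. The members, the auxin-linked families and the rules were chosen with earlier results of these data known. Named were all members, the 3 families nearest in ratio to each member family, the auxin-linked families, and any other miRNA at the same gene models, of which there were 0.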

Additional observations from a re-analysis of the deposited data

How the results depend on the processing

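The A over J ratio of miR160 was 0.101 with clean reads, 0.238 with the sum of known miRNA reads, 0.163 with the median known sequence set to 1 and 0.160 with edgeR's TMM, and it was called lower in A under every alternative run. The ratio of the miR167 family was 0.549, and became 1.29 with the known sum, 0.679 with the known sum without mdm-miR156 and mdm-miR535, 0.885 with the median, 0.869 with TMM, 0.657 with no scaling, 0.543 with the lowest entry of each sequence and 0.537 with the sum over entries. The 21-nt miR167 sequence gave, in the same order but for the last, 1.24, 0.655, 0.854, 0.838, 0.634 and 0.517, and the 22-nt sequence 1.84, 0.969, 1.26, 1.24 and 0.938 over the scalings. The cause was not tested. These miR167 values were all within 2-fold, and mdm-miR167a, with a ratio of 0.955, reached 2.24 (0.711 to 7.27) with the known sum and was not called. Sequences called lower in A numbered 22, against 10 with the known sum and 13 with the median, with TMM or with a 4-fold threshold. Those called higher in A numbered 5, against 22 with the known sum, 13 with the median or TMM, 8 with no scaling or without mdm-miR156 and mdm-miR535, and 2 at 4-fold. Taking gene models with the same window and count as 1 site left 5 of 6 for miR160 and 3 of 6 for miR167, and asking only for the same bases from the site on and the same count, chosen after seeing the data, left 3 for each, and a score of at most 2 left 0 for miR167. A site count of at least 100 left 4 for miR160. No paired analysis was possible because each phase had 1 library, and for the same reason no library could be left out. Depth limits mdm-miR167a and the A level of miR160.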
